A study of Mus musculus with 6 samples.

Results

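T cell identity and checkpoint genes are described here in penile tumors of SA mice and in normal penis of WT mice. A fixed list of 40 gene symbols was looked up in the deposited count tables, and each symbol was represented by the transcript row with the highest mean count. All 40 were found among 24063 symbols, and 33 passed the filter on low counts and were tested. The list holds 7 genes of the T cell receptor complex and its co-receptors and 7 genes of T cell surface and signal proteins. It also holds 7 costimulatory genes, which are receptors and the ligand gene Cd40lg, as well as 6 inhibitory receptors and 4 ligands carried by other cells. The rest are 5 genes of the IL-2 receptor and of transcription factors, and 4 effector molecules.

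RNA sequencing was performed on penile tumors of 3 SA mice (PB-Cre+ Smad4L/L ApcL/L) and on penile epithelium of 3 WT C57BL/6 mice, all 5 months old. The PB-Cre4 transgene places Cre under an androgen-responsive promoter that is active in penile and prostate epithelium, so Smad4 and Apc are deleted in epithelial cells and the T cells of these mice are not its target. The tumors formed spontaneously, without a carcinogen, and the RNA was taken from fresh tissue that holds epithelium, stroma and infiltrating cells. The promoter that drives Cre and the mixed tissue limit the SA tumors as a model of immune cells, which are present only as far as they infiltrate.

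T cells recognize antigen through a receptor that signals by way of the CD3 chains and CD247, the kinases Lck and Zap70, and the adaptor Lat. Costimulatory receptors such as CD28 and ICOS add to this signal, and inhibitory receptors such as CTLA-4 and PD-1 restrain it. The inhibitory receptors and their ligands are known as immune checkpoints and are the targets of the antibodies used in cancer immunotherapy.

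Depth set the limits of these measurements. The gene rows of a library held between 23828283 and 110509147 counts, and SA tumor replicate 3 was the deepest. Levels are given as TMM-normalized CPM, the counts of a gene per 1000000 counts of the library, and 3 counts corresponded to between 0.0244 and 0.137 CPM. Many of the members had few counts, and their errors were wide. In whole tissue, fewer cells of a type and less RNA per cell cannot be told apart.

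The libraries were first checked against their labels. Smad4 was at 36.6, 36.1 and 46.1 CPM in the SA tumors and at 61.2, 69.7 and 72.5 CPM in the WT penises and fell (log2 fold change -0.77, adjusted p = 0.00114). Apc was at 253, 194 and 197 CPM against 62.5, 85.3 and 91.1 CPM and rose (log2 fold change 1.43, adjusted p = 0.000185). Both counts cover whole transcripts, including exons outside the deleted part, so they do not test the recombination. Keratinocyte transcripts were present in both groups and lower in the tumors. The summed level of 8 keratinocyte markers was 20800 to 25900 CPM in the SA tumors and 59900 to 67400 CPM in the WT penises. The WT penises also held 6300 to 6860 CPM of 10 stromal, muscle and vessel markers, against 1100 to 3960 CPM in the SA tumors, so neither group was pure epithelium.

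Of the 33 tested members, 11 were upregulated in the SA tumors by the thresholds of the study (adjusted p under 0.01 together with a log2 fold change of 2 or more in size), and 0 were downregulated. Over all 16336 genes tested, 9.41% were upregulated and 3.59% were downregulated. At an adjusted p under 0.05, the level for which the words rose and fell are used here, 13 members rose and 1 fell, while 28.2% of all genes rose and 25.2% fell. The number that rose was 22 without SA tumor replicate 1 and also 22 when libraries were scaled by their totals only. In 17 of the 33 members every SA tumor was above every WT penis and in 2 every tumor was below. Without overlap, 32.7% of all genes tested were higher in the tumors and 30.7% lower, 63.4% in either direction. The 11 upregulated members were Cd5, Lck, Zap70, Icos, Tnfrsf9, Ctla4, Havcr2, Btla, Pdcd1lg2, Il2ra and Il17a. The receptor chains that define a T cell were not among them. The median log2 fold change was 1.14 over the tested members and 0.03 over all genes tested. A member could pass the filter through the SA tumors alone, so these counts describe the members that passed and not all 40.

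**Figure D1:**
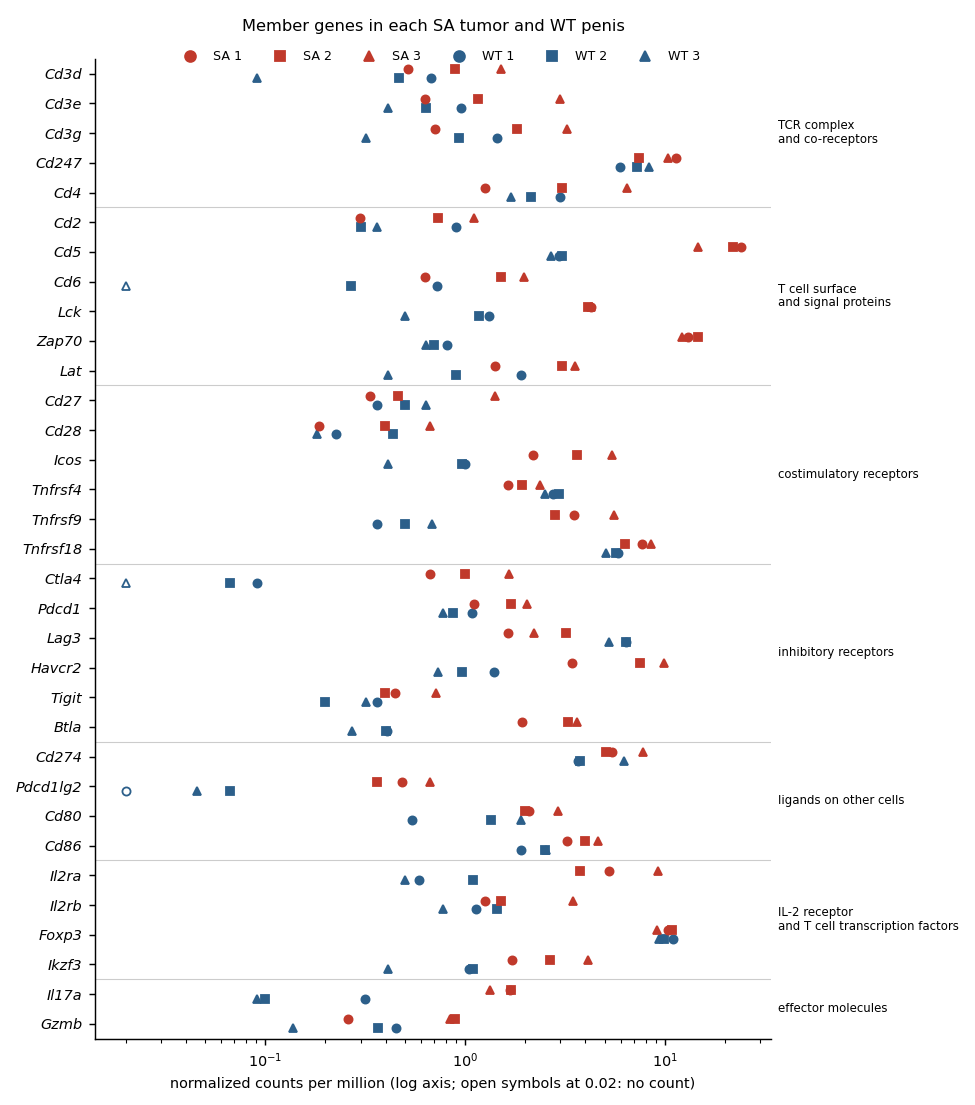
Normalized CPM (log axis) of the 33 tested member genes, ordered by role. Each of the 3 SA tumors and the 3 WT penises has 1 symbol, and open symbols mark libraries with no count. Zap70 and Cd5 lie apart in the SA tumors and the WT penises, while the CD3 genes and Cd4 spread over the SA tumors and overlap the WT penises.

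**Figure D2:**
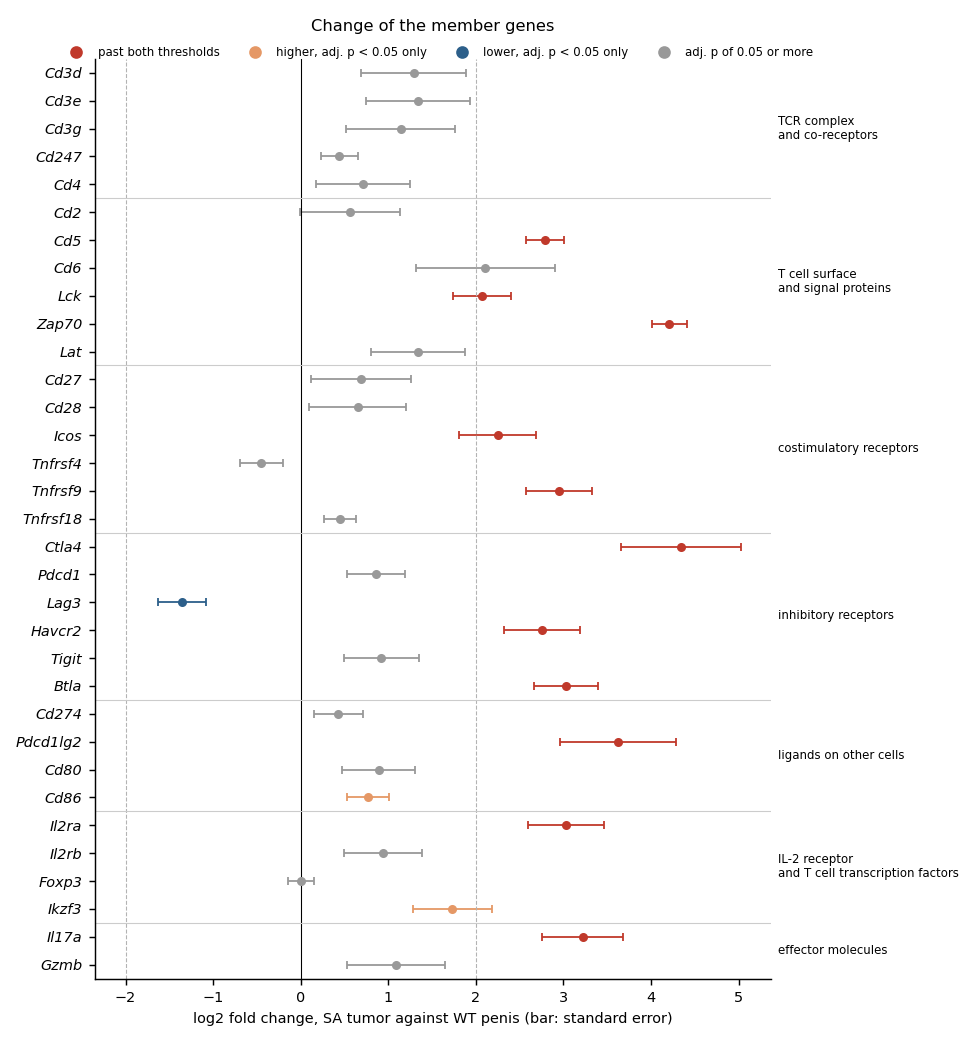
Log2 fold change of each tested member, SA tumor against WT penis, with bars for the standard error and colors for the call. Ctla4 (4.34) and Zap70 (4.21) lie farthest to the right, and Lag3 (-1.36) is the member that fell.

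The promoters of 4 upregulated members are shown because these genes carry the differences described below, the kinases Lck and Zap70 next to the receptor and the surface receptors Havcr2 and Tnfrsf9. Each is the 250 bases before the annotated start in RefSeq's GRCm38.p6, printed 5′ to 3′ on the gene's own strand. Capitals mark a match to 1 of 4 motifs searched on both strands, RUNX (TGTGGTT), TCF/LEF (ATCAAAG), AP-1 (TGACTCA) and ETS (CCGGAAGT).

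The window of Lck lies at chr4:129573642-129573891 on the minus strand, that of Zap70 at chr1:36761548-36761797, that of Havcr2 at chr11:46454681-46454930 and that of Tnfrsf9 at chr4:150919905-150920154, the last 3 on the plus strand.
Lck: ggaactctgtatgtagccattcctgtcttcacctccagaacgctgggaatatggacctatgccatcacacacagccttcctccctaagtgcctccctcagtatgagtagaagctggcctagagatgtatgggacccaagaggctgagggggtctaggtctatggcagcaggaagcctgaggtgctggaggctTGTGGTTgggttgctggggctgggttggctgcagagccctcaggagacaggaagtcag
Zap70: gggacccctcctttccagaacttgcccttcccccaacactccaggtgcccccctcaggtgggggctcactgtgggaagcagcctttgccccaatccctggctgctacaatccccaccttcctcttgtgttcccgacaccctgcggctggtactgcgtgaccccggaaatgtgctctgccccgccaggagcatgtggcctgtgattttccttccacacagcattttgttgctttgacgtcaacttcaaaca
Havcr2: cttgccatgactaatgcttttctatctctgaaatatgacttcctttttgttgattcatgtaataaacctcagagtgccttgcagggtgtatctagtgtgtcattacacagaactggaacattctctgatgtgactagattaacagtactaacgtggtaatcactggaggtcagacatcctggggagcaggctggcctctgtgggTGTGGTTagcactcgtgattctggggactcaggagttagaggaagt
Tnfrsf9: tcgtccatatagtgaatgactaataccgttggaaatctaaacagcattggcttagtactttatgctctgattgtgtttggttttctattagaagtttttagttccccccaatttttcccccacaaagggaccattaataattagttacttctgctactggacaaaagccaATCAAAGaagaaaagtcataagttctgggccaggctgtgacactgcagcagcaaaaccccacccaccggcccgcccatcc

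The RUNX letters stood 58 bases before the start of Lck and 46 bases before that of Havcr2, and the TCF/LEF letters stood 80 bases before that of Tnfrsf9. None of the 4 motifs was found in the window of Zap70. Of the 28 members with a window in the table, 5 held the RUNX letters (Lck, Havcr2, Tigit, Btla and Gzmb), 2 held the TCF/LEF letters (Cd3d and Tnfrsf9), 1 held the AP-1 letters (Gzmb) and 0 held the ETS letters. Among all 27025 promoter windows of the table, 4.46% held the RUNX letters, 3.23% the TCF/LEF letters, 4.43% the AP-1 letters and 2.93% the ETS letters. A match describes the sequence and was not tested as a binding site.

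The CD3 chains and co-receptors had few counts, and several varied strongly between tumors. None of the 5 tested genes of this group passed an adjusted p of 0.05 in either direction, against 53.4% of all genes tested. The WT penises varied as much or more in Cd3d (SD of log2 CPM 1.26 against 0.728 in the tumors) and Cd3g (1.04 against 1.07). They varied less in Cd3e (0.562 against 1.09) and Cd4 (0.405 against 1.16). Cd3e, which encodes the CD3 epsilon chain, was at 0.632, 1.16 and 3.00 CPM in SA tumor replicates 1, 2 and 3 and at 0.949, 0.634 and 0.410 CPM in the WT penises in the same order. The lowest tumor lay below the highest WT penis, and the log2 fold change was 1.34 ± 0.593 (SE, adjusted p = 0.0891). The delta chain gene Cd3d showed the same order of tumors, with 0.520, 0.894 and 1.51 CPM against 0.678, 0.467 and 0.0911 CPM and a log2 fold change of 1.29 ± 0.603 (SE, adjusted p = 0.103). Cd3g, the gamma chain gene, was at 0.706, 1.82 and 3.25 CPM in the SA tumors and at 1.45, 0.935 and 0.319 CPM in the WT penises (log2 fold change 1.14 ± 0.625, SE, adjusted p = 0.157).

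In all 3 CD3 genes the first tumor was the lowest and the third the highest, and the first WT penis was the highest of its group. The 3 genes are neighbors on chromosome 9, with 1.34 kb between Cd3g and Cd3d and 11.7 kb between Cd3d and Cd3e. Without SA tumor replicate 1, Cd3e (log2 fold change 1.69, adjusted p = 0.0201) and Cd3g (1.51, adjusted p = 0.0378) rose. The summed level of the 3 genes was 1.86, 3.87 and 7.76 CPM in the SA tumors and 3.07, 2.04 and 0.820 CPM in the WT penises, and that of 9 pan-leukocyte markers was 116, 210 and 340 CPM against 120, 82.8 and 78.0 CPM. The tumors stood in the same order in both sums, and the part of overall leukocyte content in the CD3 values was not tested.

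The co-receptor genes mark helper and cytotoxic T cells. Cd4 was at 1.26, 3.05 and 6.49 CPM in the SA tumors and at 2.98, 2.14 and 1.69 CPM in the WT penises, so the groups overlapped (log2 fold change 0.71 ± 0.537, SE, adjusted p = 0.301). Its call depended on single libraries: Cd4 rose without SA tumor replicate 1 (1.09, adjusted p = 0.0390), and its log2 fold change was -0.06 without SA tumor replicate 3. Some mouse dendritic cells also carry CD4, so its transcript is not specific to T cells. Both chains of the cytotoxic co-receptor failed the filter. For Cd8a the tumors held 0, 2 and 27 counts and the WT penises 1, 1 and 3, and Cd8b1 had 2, 1 and 9 counts against 0, 3 and 2 counts. At this depth a difference in either could not be shown, with a ratio of pooled Cd8a levels of 2.38 (95% exact interval 0.912 to 7.88, counting error only).

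Cd247, the gene of the CD3 zeta chain, stood apart from the other chains. It was at 11.4, 7.45 and 10.3 CPM in the SA tumors and at 5.97, 7.24 and 8.29 CPM in the WT penises (log2 fold change 0.44 ± 0.210, SE, adjusted p = 0.108). The gene overlaps Pou2f1, a widely expressed transcription factor gene on the opposite strand. The overlap covers 3007 exonic bases or 56.4% of the exonic bases of Cd247, taken over all its annotated transcripts. The overlap of the single row counted was not measured. Pou2f1 itself was at 57.0, 40.8 and 47.4 CPM against 33.9, 36.7 and 38.2 CPM. The library preparation was stranded, but whether the counting used the strand is not given in the sources used here, so reads of both genes may not be separated. A Cd247 row with fewer counts, NM_001113391, chosen after its counts were seen, was at 0.669, 1.32 and 2.57 CPM in the SA tumors and at 1.54, 0.935 and 0.592 CPM in the WT penises, the order of the CD3 genes, and gave a log2 fold change of 0.64 ± 0.527 (SE, adjusted p = 0.338).

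Among the surface and signal proteins, Zap70, Cd5 and Lck differed between the groups. Of the 6 tested surface and signal genes, 3 were upregulated and 3 did not pass an adjusted p of 0.05. The share upregulated over all genes tested was 9.41%. Zap70, the kinase that binds the phosphorylated CD3 and zeta chains, was at 13.0, 14.6 and 12.2 CPM in the SA tumors and at 0.814, 0.701 and 0.638 CPM in the WT penises. The tumors lay within a factor of 1.20 of each other and far above every WT penis, with a log2 fold change of 4.21 ± 0.203 (SE, adjusted p = 2.62e-06). Lck, the kinase that phosphorylates those chains first, was at 4.27, 4.10 and 4.26 CPM against 1.31, 1.17 and 0.501 CPM. It was the member that varied least among the tumors, and its log2 fold change was 2.07 ± 0.336 (SE, adjusted p = 0.00106). Without WT penis replicate 3 the value of Lck was 1.74, below the fold threshold.

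Cd5, a surface protein of T cells and of some B cells that dampens receptor signals, was at 23.9, 21.8 and 14.7 CPM in the SA tumors and at 2.94, 3.04 and 2.69 CPM in the WT penises. The tumor with the highest CPM of the CD3 genes had the least Cd5, and the log2 fold change was 2.79 ± 0.214 (SE, adjusted p = 1.96e-05). Its neighbor Cd6, a related receptor that lies 50.3 kb away on chromosome 19, was at 0.632, 1.52 and 1.98 CPM against 0.723, 0.267 and 0 CPM (log2 fold change 2.11 ± 0.799, SE, adjusted p = 0.0552). Cd6 rose without SA tumor replicate 1 (2.43, adjusted p = 0.0226) and without WT penis replicate 1 (3.22, adjusted p = 0.0291). With all libraries kept, Cd6 also rose under DESeq2 and under scaling by library totals only.

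Lat, the membrane adaptor that Zap70 phosphorylates, was at 1.41, 3.05 and 3.53 CPM in the SA tumors and at 1.90, 0.901 and 0.410 CPM in the WT penises (log2 fold change 1.34 ± 0.535, SE, adjusted p = 0.0641). Lat followed the CD3 genes in the order of the tumors and of the WT penises. It rose without SA tumor replicate 1 (1.63, adjusted p = 0.0227) and without WT penis replicate 1 (1.99, adjusted p = 0.0230). With all libraries kept, Lat also rose under DESeq2 and under scaling by library totals only. The adhesion receptor gene Cd2 was at 0.297, 0.728 and 1.11 CPM against 0.904, 0.300 and 0.364 CPM (log2 fold change 0.56 ± 0.571, SE, adjusted p = 0.435). The adaptor gene Skap1 failed the filter, with 5, 14 and 127 counts in the tumors against 5, 10 and 2.

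Among the 6 tested costimulatory receptors, Icos and Tnfrsf9 were upregulated and 4 did not pass an adjusted p of 0.05. The share upregulated over all genes tested was 9.41%. Tnfrsf9, which encodes the receptor 4-1BB of activated T cells, was at 3.49, 2.81 and 5.55 CPM in the SA tumors and at 0.362, 0.501 and 0.683 CPM in the WT penises. Every tumor was above every WT penis, with a log2 fold change of 2.95 ± 0.380 (SE, adjusted p = 0.000305). Icos, a relative of Cd28 that appears on activated T cells, was at 2.19, 3.61 and 5.46 CPM against 0.995, 0.968 and 0.410 CPM, again without overlap (log2 fold change 2.25 ± 0.442, SE, adjusted p = 0.00291). Its fold threshold was lost without SA tumor replicate 3 (1.86) and without WT penis replicate 3 (1.93), and its adjusted p was 0.0112 without WT penis replicate 1.

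Cd28, the costimulatory receptor of resting T cells, was at 0.186, 0.397 and 0.666 CPM in the SA tumors and at 0.226, 0.434 and 0.182 CPM in the WT penises, which overlapped (log2 fold change 0.65 ± 0.550, SE, adjusted p = 0.349). Cd27, a TNF receptor family member of T and B cells, was at 0.334, 0.463 and 1.41 CPM against 0.362, 0.501 and 0.638 CPM (log2 fold change 0.69 ± 0.572, SE, adjusted p = 0.339), and its high mean came from SA tumor replicate 3, without which the value was -0.31. Tnfrsf18, which encodes GITR, was at 7.66, 6.32 and 8.55 CPM against 5.79, 5.71 and 5.06 CPM (log2 fold change 0.45 ± 0.183, SE, adjusted p = 0.0683), and it rose without SA tumor replicate 2 (0.55, adjusted p = 0.0434). Tnfrsf18 shares 414 exonic bases, 27.2% of its total, with an antisense transcript, so its counts are uncertain.

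Tnfrsf4, the gene of OX40, lies 9.71 kb from Tnfrsf18 on chromosome 4 and was one of few members with lower levels in the tumors. It was at 1.64, 1.92 and 2.38 CPM in the SA tumors and at 2.76, 2.94 and 2.51 CPM in the WT penises, without overlap, but the difference did not pass the test (log2 fold change -0.45 ± 0.248, SE, adjusted p = 0.157). The ligand gene Cd40lg of activated helper T cells failed the filter, with 2, 3 and 26 counts against 1, 1 and 0 counts.

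Inhibitory receptors differed among themselves. Of 6 tested, Ctla4, Havcr2 and Btla were upregulated, Lag3 fell, and Pdcd1 and Tigit did not pass an adjusted p of 0.05. Over all genes tested, 9.41% were upregulated and 25.2% fell. Ctla4, which competes with CD28 for its ligands, was at 0.669, 0.993 and 1.66 CPM in the SA tumors and at 0.0904, 0.0668 and 0 CPM in the WT penises. The tumors together held 252 counts and the WT penises 4, so the size of the difference is poorly fixed. The fitted log2 fold change was 4.34 ± 0.683 (SE, adjusted p = 0.000898), and the ratio of pooled levels was 25.9 (95% exact interval 9.98 to 95.7, counting error only).

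Havcr2, which encodes TIM-3, a receptor of exhausted T cells that macrophages and dendritic cells also carry, was at 3.42, 7.51 and 9.92 CPM in the SA tumors and at 1.40, 0.968 and 0.729 CPM in the WT penises. The tumors differed from each other more than in Zap70 or Lck but did not overlap the WT penises (log2 fold change 2.76 ± 0.434, SE, adjusted p = 0.000916). Btla, a receptor of lymphocytes that binds a TNF receptor family member, was at 1.93, 3.28 and 3.65 CPM against 0.407, 0.401 and 0.273 CPM (log2 fold change 3.03 ± 0.369, SE, adjusted p = 0.000225). For Ctla4, Havcr2 and Btla the upregulation held when any 1 of the 6 libraries was left out.

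Lag3, an inhibitory receptor that binds MHC class II and lies 16.1 kb from Cd4 on chromosome 6, was the 1 member that fell. It was at 1.64, 3.21 and 2.21 CPM in the SA tumors and at 6.42, 6.41 and 5.24 CPM in the WT penises, without overlap (log2 fold change -1.36 ± 0.273, SE, adjusted p = 0.00327). The fall held when any 1 library was left out. Pdcd1, the gene of PD-1, was at 1.11, 1.69 and 2.05 CPM against 1.08, 0.868 and 0.775 CPM, with the lowest tumor just above the highest WT penis (log2 fold change 0.86 ± 0.326, SE, adjusted p = 0.0542). It rose without SA tumor replicate 1 (1.05, adjusted p = 0.0226). Tigit, a receptor of T and NK cells, was at 0.446, 0.397 and 0.715 CPM against 0.362, 0.200 and 0.319 CPM (log2 fold change 0.92 ± 0.425, SE, adjusted p = 0.101).

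The ligands of these receptors sit on tumor cells or antigen-presenting cells. Cd274, the gene of PD-L1, was at 5.43, 5.07 and 7.77 CPM in the SA tumors and at 3.66, 3.77 and 6.24 CPM in the WT penises, and the groups overlapped (log2 fold change 0.43 ± 0.277, SE, adjusted p = 0.222). Pdcd1lg2, the PD-L2 gene 22.8 kb away on chromosome 19, was at 0.483, 0.364 and 0.666 CPM against 0, 0.0668 and 0.0456 CPM. The WT penises held 3 counts in all against 106 in the tumors, the fitted log2 fold change was 3.62 ± 0.664 (SE, adjusted p = 0.00202), and the ratio of pooled levels was 14.5 (95% exact interval 4.83 to 71.5, counting error only). Without SA tumor replicate 3 Pdcd1lg2 did not pass the filter and was not tested, and the remaining tumors still lay above every WT penis.

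Cd80 and Cd86 encode the B7 ligands that CD28 and CTLA-4 share. Cd86 was at 3.23, 3.97 and 4.61 CPM in the SA tumors and at 1.90, 2.50 and 2.55 CPM in the WT penises and rose by a log2 fold change of 0.77 ± 0.242 (SE, adjusted p = 0.0265). That call was weak, since it was lost in 5 of the 6 fits that left out a library and held only without SA tumor replicate 1, where the adjusted p was 0.0175. Cd80 was at 2.08, 1.99 and 2.92 CPM against 0.542, 1.34 and 1.91 CPM (log2 fold change 0.89 ± 0.418, SE, adjusted p = 0.104), and it rose without WT penis replicate 3 (1.27, adjusted p = 0.0491). For scale, 9 dendritic and Langerhans cell markers summed to 67.9, 123 and 153 CPM in the SA tumors and to 154, 93.8 and 82.2 CPM in the WT penises.

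Il2ra, the high-affinity chain of the IL-2 receptor on regulatory and activated T cells, was at 5.24, 3.77 and 9.23 CPM in the SA tumors and at 0.588, 1.10 and 0.501 CPM in the WT penises. Every tumor was above every WT penis, with a log2 fold change of 3.03 ± 0.438 (SE, adjusted p = 0.000572). The signaling chain Il2rb was at 1.26, 1.52 and 3.48 CPM against 1.13, 1.44 and 0.775 CPM and overlapped (log2 fold change 0.94 ± 0.445, SE, adjusted p = 0.109), and it rose without SA tumor replicate 1 (1.18, adjusted p = 0.0455). Ikzf3, a lymphocyte transcription factor, was at 1.71, 2.65 and 4.10 CPM against 1.04, 1.10 and 0.410 CPM and rose (log2 fold change 1.73 ± 0.449, SE, adjusted p = 0.0114).

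Foxp3, the lineage factor of regulatory T cells, was at 10.3, 10.8 and 9.09 CPM in the SA tumors and at 11.0, 9.91 and 9.29 CPM in the WT penises. The groups overlapped throughout, and the log2 fold change was -0.00 ± 0.148 (SE, adjusted p = 0.987). These counts are uncertain, because Foxp3 shares 853 exonic bases, 18.6% of its total, with Flicr on the same strand. On the opposite strand it shares 590 with Ccdc22, 373 with Gm36995 and 266 with Ppp1r3f. Ccdc22 was at 32.1, 35.0 and 26.8 CPM against 34.2, 29.0 and 27.9 CPM. The part of these overlapping genes in the Foxp3 counts was not tested, and counting by strand would not separate Flicr. The sign of its near-zero value turned with the scaling (0.28 with library totals only) and without single libraries. Tbx21, the gene of the helper cell factor T-bet, failed the filter with 3, 7 and 15 counts against 7, 1 and 2 counts.

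Of the 2 tested effector molecules 1, a cytokine, was upregulated, against 9.41% of all genes tested. All 4 effector molecules had few counts. Il17a, which draws neutrophils to epithelia, was at 1.67, 1.69 and 1.33 CPM in the SA tumors and at 0.316, 0.10 and 0.0911 CPM in the WT penises. The tumors together held 260 counts and the WT penises 12. The ratio of pooled levels was 8.9 (95% exact interval 5.01 to 17.4, counting error only). The tumors lay close together and above every WT penis, with a log2 fold change of 3.22 ± 0.465 (SE, adjusted p = 0.000566), and the upregulation held when any 1 library was left out. The cytotoxic protease gene Gzmb was at 0.260, 0.894 and 0.837 CPM against 0.452, 0.367 and 0.137 CPM (log2 fold change 1.09 ± 0.560, SE, adjusted p = 0.134), and it rose without SA tumor replicate 1 (1.41, adjusted p = 0.0343). Ifng, the gene of interferon gamma, was counted 0, 0 and 7 times in the tumors and 0, 1 and 0 times in the WT penises. Prf1, the perforin gene, was counted 3, 2 and 26 times against 4, 1 and 3 times, and neither passed the filter.

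The spread between tumors split the members. The SD of log2 CPM over the 3 SA tumors had a median of 0.494 over the tested members and of 0.189 over all genes tested, and over the 3 WT penises the medians were 0.452 and 0.156. The SD was larger over the tumors than over the WT penises for 21 of the 33 members, against 60.2% of all genes tested. Most members have few counts, and the part of counting error in these SDs was not tested. At one end stood Lck (SD 0.0316), Foxp3 (0.127), Zap70 (0.132) and Il17a (0.188). At the other stood Cd4 (1.16), Cd3e (1.09), Cd3g (1.07) and Cd27 (1.02), so that Cd4 differed by a factor of 5.14 and Cd3e by a factor of 4.76 between the lowest and the highest tumor. Among the 33 members, SA tumor replicate 1 was the lowest tumor for 20 and SA tumor replicate 3 the highest for 25, against 32.7% and 35.8% of all genes tested.

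**Figure D3:**
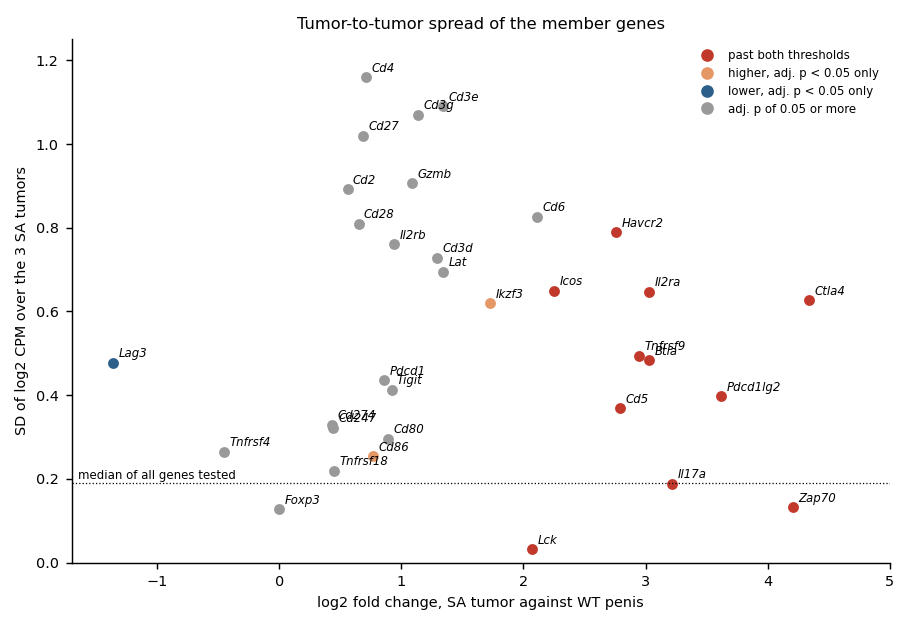
SD of log2 CPM over the 3 SA tumors (vertical axis) against the log2 fold change, SA tumor against WT penis (horizontal axis), 1 point for each tested member. Zap70, Lck and Il17a combine a high fold change with an SD under 0.25, while Cd3e, Cd3g, Cd4 and Cd27 have the largest SDs, from 1.02 to 1.16.

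Setting each member against the CD3 genes of the same library asked which members differed by more or by less than the CD3 genes. The measure is the log2 CPM of a member minus the mean log2 CPM of Cd3d, Cd3e and Cd3g, for the other 30 tested members. For 9 members every SA tumor was above every WT penis on this scale, and for 3 every tumor was below, while 5.61% of all genes tested were higher and 22.5% lower without overlap. The 9 were Zap70, with a difference of group means of 3.00, Ctla4 (2.46), Il17a (1.91), Il2ra (1.83), Btla (1.72), Havcr2 (1.49), Cd6 (1.40), Icos (1.06) and Ikzf3 (0.58). The 3 were Lag3 (-2.51), Tnfrsf4 (-1.60) and Cd4 (-0.72). With 3 libraries a group, the two-sided exact permutation test cannot go below p = 0.10, and each of these members had that p and a Benjamini-Hochberg value of 0.25 over 30 comparisons, so none passed. The number lower without overlap was 7 without SA tumor replicate 1 and 6 without WT penis replicate 1.

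The raw ratios show how few CD3 counts stand behind this scale. The 3 CD3 genes together held 50, 117 and 956 counts in the tumors against 68, 61 and 18 in normal penis. Per 100 CD3 counts, Zap70 had 700, 378 and 157 counts in the tumors against 26.5, 34.4 and 77.8. The tumor with the fewest CD3 counts gave the highest ratio, and the same order held in Ctla4, with 36.0, 25.6 and 21.3 counts per 100 against 2.94, 3.28 and 0. Lag3 ran lower in the tumors, with 88.0, 82.9 and 28.5 counts per 100 CD3 counts against 209, 315 and 639. For Cd5 the groups overlapped, with 1280, 562 and 190 counts per 100 in the SA tumors and 95.6, 149 and 328 in the WT penises.

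**Figure D4:**
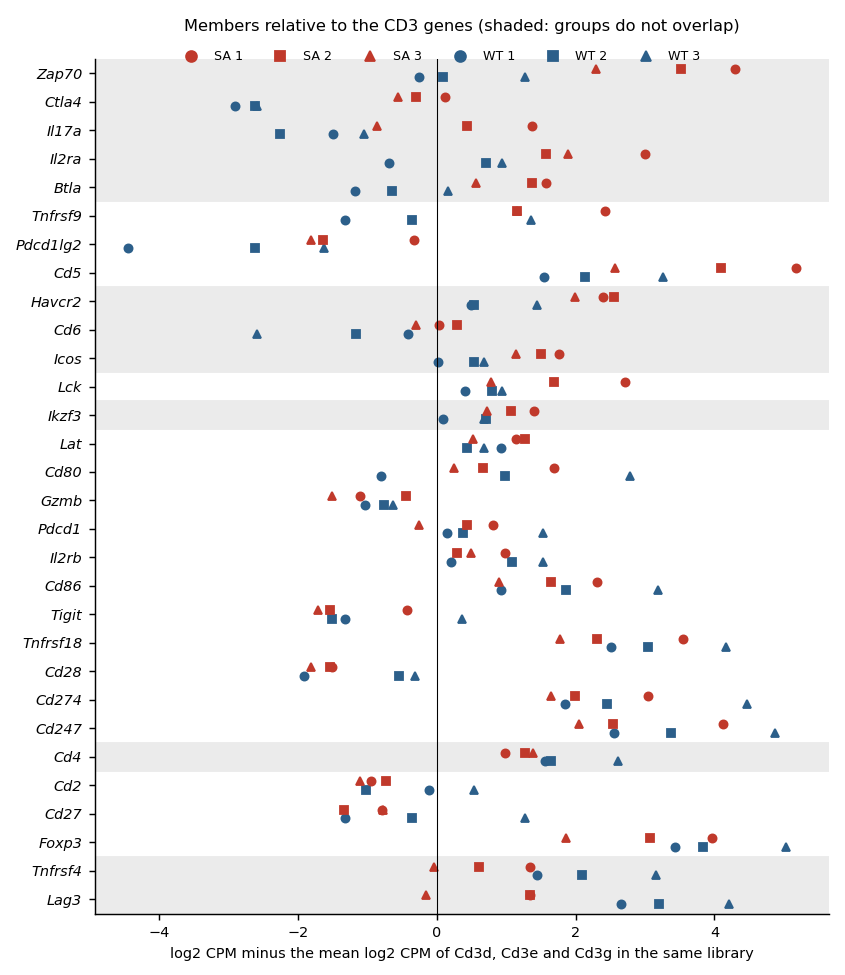
Log2 CPM of each of 30 members minus the mean log2 CPM of Cd3d, Cd3e and Cd3g in the same library, with 1 symbol per library and shading where the groups do not overlap. Zap70 (3.00) and Ctla4 (2.46) differ most toward the SA tumors, and Lag3 (-2.51) differs most toward the WT penises.

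Levels of different genes can be compared only per length, for which the deposited FPKM values were used. In the SA tumors Cd5 was at 7.26 ± 1.70 FPKM (SD, n = 3), Tnfrsf18 at 5.57 ± 0.865, Zap70 at 4.41 ± 0.384 and Cd3g, the highest of the CD3 genes, at 1.41 ± 0.939. Lck was at 1.49 ± 0.0395 FPKM, Cd4 at 0.871 ± 0.647 and Cd8a at 0.0228 ± 0.0270. In the WT penises the same genes were at 0.864 ± 0.0515 (Cd5), 3.39 ± 0.221 (Tnfrsf18), 0.198 ± 0.0221 (Zap70), 0.542 ± 0.335 (Cd3g), 0.290 ± 0.124 (Lck), 0.453 ± 0.126 (Cd4) and 0.0142 ± 0.0113 (Cd8a). Cd5 exceeded every CD3 gene per length in each tumor and in each WT penis, in WT penis replicate 1 only narrowly (0.867 FPKM against 0.863 for Cd3g). Zap70 exceeded every CD3 gene in each tumor. In the WT penises its group mean (0.198 FPKM) was below those of Cd3g (0.542) and Cd3e (0.286) and near that of Cd3d (0.191).

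Genes of T cell receptor signaling outside the 40 behaved unevenly. Of 21 tested, 10 rose and 3 fell, and 5 were upregulated. Over all genes tested, 28.2% rose, 25.2% fell, 9.41% were upregulated and 3.59% were downregulated. These shares are the background for the lists that follow. Prkcq, the protein kinase C theta of the immune synapse, was at 84.0 CPM in the SA tumors and 2.31 CPM in the WT penises (group means, log2 fold change 5.18). Upregulated as well were Ubash3a (2.84) and Ptpn22 (2.30), both negative regulators of receptor signals, and Lcp2 (2.28), the adaptor SLP-76. Trat1 and Themis, T cell genes of the same list, failed the filter, with group means of 0.0217 and 0.0530 CPM in the SA tumors and 0.0151 and 0.170 CPM in the WT penises.

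Transcription factors known from T cells moved in both directions: of 19 tested, 8 rose and 10 fell, 4 of them upregulated and 2 downregulated. Runx3 was at 26.7 and 2.09 CPM in the SA tumors and the WT penises (log2 fold change 3.66), Tcf7, a partner of beta-catenin, at 89.2 and 9.28 CPM (3.27), Zbtb16 at 3.03 and 73.8 CPM (-4.53) and Irf4 at 1.13 and 8.12 CPM (-2.74). Many of these factors are also expressed in epithelium or stroma, and their cell of origin was not tested. Among 10 tested cytokine and cytotoxic genes 4 were upregulated and 0 fell, namely Gzma (5.16), Ltb (2.42), Il17f (2.28) and Il10 (2.24). Among 10 tested homing receptors 8 rose and 1 fell, and 5 were upregulated, among them Ccr7 (4.28), Ccr4 (3.85) and Itgae (2.55).

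Of 17 tested partners of the checkpoint and costimulatory proteins, 9 rose and 2 fell, and 2 were upregulated. Cd244, a receptor of NK cells and myeloid cells, was at 26.2 and 0.838 CPM (log2 fold change 4.99), and Tnfsf9, the ligand of the product of Tnfrsf9, at 8.42 and 0.744 CPM (3.48). Of 7 tested genes of regulatory T cells, 3 rose, Il1rl1 (5.95), Tnfrsf8 (4.15) and Gpr83, against 28.2% of all genes tested. Gpr83 was counted 35, 31 and 124 times in the tumors and 0 times in each WT penis. Lrrc32 (0.52), Nrp1 (0.29), Ikzf4 (-0.79) and Itgb8 (-0.8) did not pass an adjusted p of 0.05. Which cells carried these transcripts was not tested. Of 6 tested genes of gamma delta T cells, 2 rose and 1 fell, and 0 were upregulated.

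Marker lists of other cell types differed between the groups in either direction or overlapped, and their part in the members' differences was not tested. The summed level of 9 neutrophil markers was 1760, 1450 and 2540 CPM in the SA tumors and 136, 91.3 and 68.9 CPM in the WT penises. Most of it came from S100a8 and S100a9, and 7 of 7 tested rose. The sum of 9 B cell markers was 61.2, 64.2 and 44.3 CPM against 19.7, 22.9 and 20.0 CPM, most of it from Blnk, and 2 of 3 tested rose, Blnk and Cd22. The defining B cell gene Ms4a1 was counted 1, 1 and 14 times in the tumors and 0, 2 and 0 times in the WT penises. The sum of 10 NK cell markers was 1.34, 1.89 and 3.96 CPM against 1.99, 1.13 and 1.73 CPM, and 1 of 2 tested rose, while the NK receptor gene Ncr1 was counted 0, 0 and 4 times against 8, 2 and 0 times.

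Macrophage markers summed to 145, 333 and 349 CPM in the SA tumors and to 343, 247 and 277 CPM in the WT penises, and of 10 tested 1 rose and 2 fell. Of 7 tested mast cell markers 4 rose and 0 fell, with sums of 33.0, 82.4 and 97.8 CPM against 46.6, 30.1 and 31.7 CPM. SA tumor replicate 1 was the lowest tumor for the CD3 genes and in the pan-leukocyte, macrophage, dendritic cell, mast cell and NK cell sums. It was not the lowest in the neutrophil and B cell sums. The neutrophil sum was lowest in SA tumor replicate 2, as were S100a8 and S100a9. The other tested neutrophil markers, Csf3r, Cxcr2, Mmp8, Itgam and Retnlg, were each lowest in SA tumor replicate 1. The sum of the stromal, muscle and vessel markers had the tumor order of the CD3 genes, with 1100, 3030 and 3960 CPM in the SA tumors. Its part in the spread of the members was not tested. Of 9 tested pan-leukocyte markers 5 rose, 0 fell and 0 were upregulated, while 9 dendritic and Langerhans cell markers gave 3 that rose and 2 that fell. Of the 8 keratinocyte markers 6 fell, and of the 10 stromal, muscle and vessel markers 6 fell.

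**Figure D5:**
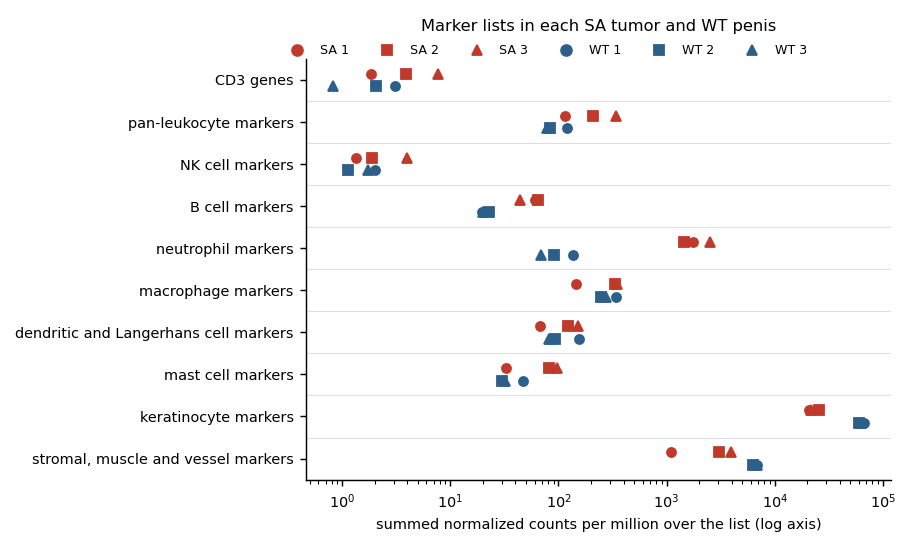
Summed normalized CPM (log axis) of the marker lists in each library, 1 symbol per library. The CD3 genes (0.820 to 7.76 CPM) and NK cell markers (1.13 to 3.96 CPM) overlap between the groups, while the neutrophil sums of the SA tumors (1450 to 2540 CPM) lie above those of every WT penis.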

How the data were processed

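Total RNA of 3 SA tumors and 3 WT penises was sequenced in pairs of reads with a stranded protocol. The authors used TopHat for alignment to mm10, FastQC for read quality and HTSeq for counting; versions and the strand setting are not given in the sources used here. The deposited tables hold raw counts per RefSeq transcript. The authors also deposited FPKM, used here for levels between genes, and TPM, whose sum was 1000000 in every library. Of 33068 rows with 24063 symbols, 1 row represented each symbol (highest mean count), and 4914 symbols had several rows. The study tested with DESeq2.

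The test was run with edgeR 4.0.16 under R 4.3.3 (TMM, filterByExpr with a minimum count of 10, robust quasi-likelihood F-test, Benjamini-Hochberg over 16336 genes). The standard error is the log2 fold change divided by the square root of F. Log2 CPM used a prior count of 2. Intervals are exact 95% intervals for counts and cover counting error only. No set test was run, and the scripts were tested on simulated data. Alternatives were RLE scaling, library totals only, DESeq2 1.42.0, no filter, summed transcript rows, the replicate block, leaving out each library and other prior counts and references. All 40 members are named, and from other lists the upregulated or downregulated genes, at most the 4 largest; other genes named were chosen after their values were seen. Some genes of these lists are not reported here by name. The members and lists were chosen with earlier results of these data known. Of 204 genes in the other lists, 198 were found, 2 by an older symbol. Promoter windows and positions come from RefSeq and the annotation of GRCm38.p6. Same-numbered libraries had residual correlations of -0.1347, -0.1049 and 0.0238, so the numbers were not treated as pairs. The 3 SA mice were separate animals. Replicates of a group differed beyond sampling noise, and the p-values set the difference between the groups against the spread between these samples.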

Additional observations from a re-analysis of the deposited data

How the results depend on the processing

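RLE scaling, DESeq2, no filter and summed transcript rows left 11 members upregulated, and library totals only gave 12. Scaling by library totals only moved the median log2 fold change of all genes to 0.31 and raised the members that rose from 13 to 22, while the share of higher genes among all calls at an adjusted p under 0.05 went from 52.8% to 73.7%. Leaving out 1 library gave 9 to 11 upregulated members and 11 to 22 that rose, the 22 without SA tumor replicate 1, Skap1 among them. Members apart from the CD3 genes numbered 9 to 12 higher and 3 to 7 lower when 1 library was left out, with 7 lower without SA tumor replicate 1 and 6 without WT penis replicate 1. With the replicate block 10 members were upregulated, Icos being lost (log2 fold change 2.18), and 2066 of all genes passed both thresholds against 2124. Not every library correlated best with its own number. Signs turned for Foxp3, with 0.28 under library totals only, 0.07 without SA tumor replicate 3 and 0.05 without WT penis replicate 1, and for Cd4 (-0.06) and Cd27 (-0.31) without SA tumor replicate 3. Leaving out 1 library gave -0.08 to 0.07 for Foxp3, -0.06 to 1.09 for Cd4 and -0.31 to 0.99 for Cd27. The causes were not tested. Depth limits Cd8a, Cd8b1, Skap1, Cd40lg, Tbx21, Ifng and Prf1, which were below the filter, and without the filter their adjusted p ran from 0.0674 (Cd40lg) to 0.958 (Cd8b1).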
